A study of Rattus norvegicus with 34 samples.

Results

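The left ventricles (LV) of rats with a large myocardial infarction (L-MI) were set against those of rats with a moderate one (M-MI), both sampled 2 months after surgery. The comparison takes 5 L-MI arrays and 6 M-MI arrays, 11 of the 34 arrays of the series, chosen by the infarct size that the labels give. All animals were male Wistar rats whose left coronary artery had been tied near its origin, and 1 rat gave 1 array. The visibly fibrous scar was cut away and RNA came from the remaining, outwardly unaffected wall. Infarct size was graded by echocardiography, so the groups are ranges of a continuous injury and not 2 separate treatments. They differed in heart function as well. The study reports heart failure in the L-MI rats and, in the M-MI rats, a state it says could be called compensated LV injury. The other LV arrays, 6 of sham-operated rats (whole LV, no ligation) and 6 of rats with a small infarction (S-MI), entered the fit and are set beside the results where they bear on them. For L-MI replicate 1 the description field in GEO reads compensated while the title and the infarct size field read large. It was kept as L-MI. The numbers called without it, and the named genes that then lost their call, are given below.

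After a coronary occlusion the dead muscle is replaced by scar, and the surviving wall takes on the load. Fibroblasts in that wall can lay down interstitial matrix, macrophages can stay for months, and cardiomyocytes can return to genes of the fetal heart and draw less on fatty acids, the usual fuel of the adult ventricle. Matrix composition, wall stress hormones, fuel genes, ion handling and immune cells were therefore described in turn.

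The arrays measure 29214 transcript clusters, sets of probes for a gene or a stretch of transcript, and values are log2 intensities after robust multiarray averaging (RMA), so a difference of 1 is a doubling. The array medians lay between 6.56 and 6.61 in L-MI and between 6.55 and 6.58 in M-MI, and any array correlated with each other array of its group at 0.992 or more. The first principal component of the 11 arrays held 21.0% of the variance. On it L-MI lay between 15.4 and 136.7 and M-MI between -93.8 and -17.6. Markers of ventricular cardiomyocytes identified the tissue in all 11 arrays, with mean levels of 13.07 to 13.15 in L-MI and 13.14 to 13.22 in M-MI, and none of the 10 was called. Nothing in the labels says how the arrays were batched, and with 5 and 6 arrays their number limits the precision of every value.

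A transcript cluster was called when limma gave a fold of at least 1.3 (0.38 on the log2 scale) and a p, adjusted over all 29214 by Benjamini-Hochberg, no higher than 0.05. In L-MI 581 were higher (1.99%) and 203 lower (0.695%) than in M-MI, 784 together (2.68%), out of 5512 at an unadjusted p under 0.05 (18.9%). Of those, 513 and 162 carry a gene name. The rises reached further than the falls: 49 higher and 3 lower ones passed a fold of 2. The median difference over all transcript clusters was -0.01. In 358 of the 581 every L-MI array was above every M-MI array, as in 822 of all transcript clusters (2.81%). In 119 of the 203 every L-MI array was below, as in 600 of all (2.05%). Leaving out an array can only keep or raise these numbers. Without L-MI replicate 2 the numbers over all were 1382 and 1079, and without L-MI replicate 4 966 were below. The volcano plot shows the asymmetry.

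**Figure D1:**
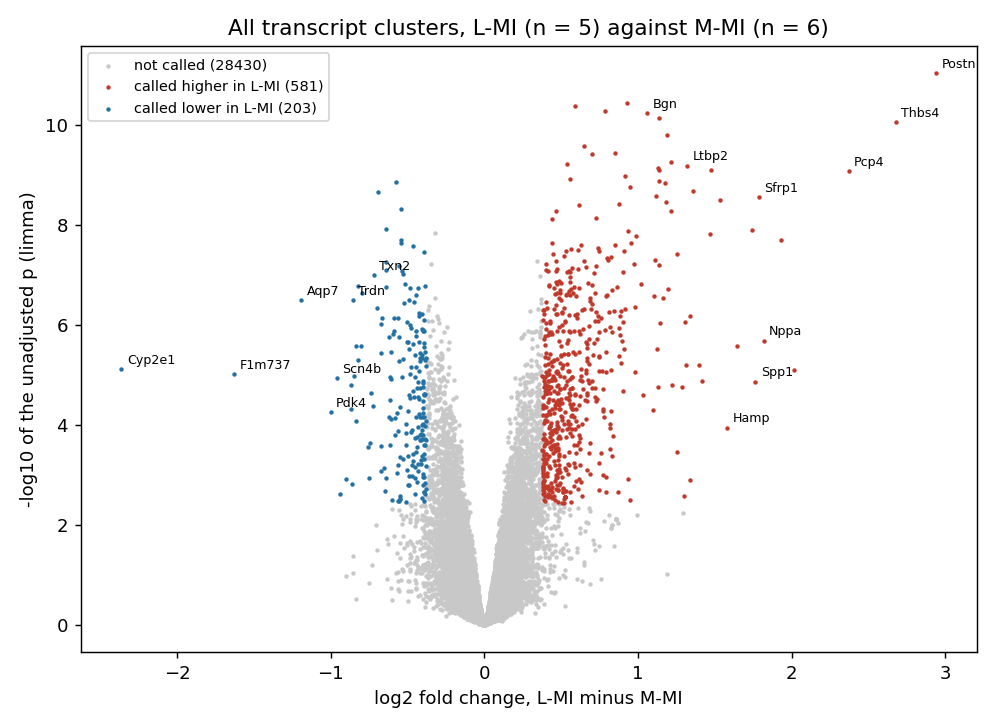
Each point is 1 of 29214 transcript clusters, with the log2 fold change of L-MI (n = 5) over M-MI (n = 6) on the x axis and -log10 of limma's unadjusted p on the y axis. The 581 higher ones (red) reach a log2 fold change of 2.94 and the 203 lower ones (blue) of -2.36, and 49 higher against 3 lower ones pass a fold of 2.

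M-MI itself could not be told from the smaller injuries at this number of arrays. M-MI against sham and M-MI against S-MI each gave 0 calls by limma, with smallest adjusted p of 0.293 and 0.188, and 2053 and 3646 transcript clusters at an unadjusted p under 0.05 (7.03% and 12.5%). An unmoderated analysis of variance gave 0 calls in each as well. The M-MI minus sham differences of the 581 higher transcript clusters had a median of -0.01 and ran between -0.32 and 0.49. Their M-MI minus S-MI median was -0.08 and their L-MI minus sham median 0.53. The 581 were chosen by a contrast that favours low M-MI values, so these differences cannot show how close M-MI is to sham. The same arrays of L-MI gave 608 higher and 333 lower against sham (2.08% and 1.14%, together 3.22%), and 459 and 266 against S-MI (1.57% and 0.911%, together 2.48%). These comparisons share the L-MI arrays, so their calls are not independent of those above.

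Periostin (Postn), a matricellular protein of activated fibroblasts, had the largest rise. It had 9.31, 7.80, 9.10, 8.43 and 9.41 in L-MI, against 5.38 to 6.34 with a median of 5.85 in M-MI. No array of either group came within 1 log2 unit of the other group, and the difference was 2.94 ± 0.23, adjusted p = 2.77e-07 (log2 fold change ± SE, here and below). The difference of M-MI from sham was 0.06 with an adjusted p of 0.957. Thrombospondin 4 (Thbs4), which rises in loaded muscle and tendon, had 9.31, 7.58, 9.23, 8.54 and 9.41 in L-MI, against 5.81 to 6.53 with a median of 6.09 in M-MI, a difference of 2.68 ± 0.24, adjusted p = 3.76e-07. L-MI replicate 2 was the lowest of its group in both genes. In bulk tissue, more cells of a type and more RNA per cell cannot be told apart.

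Of 15 matricellular proteins measured, which signal to cells from the matrix without building it, 10 rose and 1 fell, with a median of 1.20 against -0.01 over all transcript clusters. One transcript cluster for each of the 14653 named genes serves as the background here: 3.45% were called higher and 1.06% lower. Fibronectin (Fn1) differed by 1.20 and the Hippo and TGF-beta target Ccn2 by 1.40 ± 0.24, with Ccn2 at 9.59 to 10.54 in L-MI and 8.21 to 9.34 in M-MI. Ccn5 (also Wisp2) and the cartilage intermediate layer protein Cilp rose by 1.47 and 1.34, and thrombospondin 1 by 1.22. The member that fell was vitronectin (Vtn), a plasma and matrix adhesion protein, at 9.04, 9.23, 9.05, 9.05 and 9.15 in L-MI, against 9.28 to 9.69 with a median of 9.61 in M-MI (-0.43 ± 0.07, adjusted p = 0.000641). Every L-MI array had less Vtn than every M-MI array.

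Promoters are shown with short motifs, for Postn and Thbs4 as the largest rises, for Ccn2 and Acta1 as well-known load-responsive genes and for Cyp2e1 as the largest fall. RefSeq (GRCr8) gives 250 bases before to 50 after the start of 12022 of the 14653 named genes, 356 of them called higher and 115 called lower. Capitals mark matches on either strand to GGAATG (the TEAD motif), the CArG box of serum response factor, AAGGTCA (a nuclear receptor motif), TGANTCA (AP-1) and TATAAA; matches may overlap.
Postn: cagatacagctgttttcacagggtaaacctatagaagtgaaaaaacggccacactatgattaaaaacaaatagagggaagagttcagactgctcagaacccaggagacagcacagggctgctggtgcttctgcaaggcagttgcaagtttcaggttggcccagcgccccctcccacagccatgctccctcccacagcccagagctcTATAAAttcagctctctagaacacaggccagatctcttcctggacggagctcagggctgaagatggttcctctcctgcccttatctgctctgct
Thbs4: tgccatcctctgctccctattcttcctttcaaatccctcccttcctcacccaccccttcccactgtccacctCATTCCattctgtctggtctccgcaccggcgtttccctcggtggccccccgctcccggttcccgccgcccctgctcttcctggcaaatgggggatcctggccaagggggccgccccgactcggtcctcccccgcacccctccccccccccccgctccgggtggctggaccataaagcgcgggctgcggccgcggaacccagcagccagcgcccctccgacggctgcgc
Ccn2: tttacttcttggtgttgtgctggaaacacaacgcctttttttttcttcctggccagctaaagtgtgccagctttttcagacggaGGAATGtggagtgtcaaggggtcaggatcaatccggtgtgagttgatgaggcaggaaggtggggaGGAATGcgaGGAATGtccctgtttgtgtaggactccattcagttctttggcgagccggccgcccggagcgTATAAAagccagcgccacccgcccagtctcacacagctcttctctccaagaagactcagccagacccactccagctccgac
Acta1: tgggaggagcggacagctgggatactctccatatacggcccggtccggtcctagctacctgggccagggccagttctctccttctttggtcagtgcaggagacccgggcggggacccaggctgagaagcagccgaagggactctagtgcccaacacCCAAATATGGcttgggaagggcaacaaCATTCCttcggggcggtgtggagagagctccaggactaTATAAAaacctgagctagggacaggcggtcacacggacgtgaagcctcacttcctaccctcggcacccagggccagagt
Cyp2e1: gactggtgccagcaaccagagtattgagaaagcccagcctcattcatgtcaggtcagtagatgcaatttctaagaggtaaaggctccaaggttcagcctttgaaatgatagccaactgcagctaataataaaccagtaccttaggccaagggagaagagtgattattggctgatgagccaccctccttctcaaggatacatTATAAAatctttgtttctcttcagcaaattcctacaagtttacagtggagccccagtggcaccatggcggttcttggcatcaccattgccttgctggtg
These lie at chr2:140677811-140678110 (plus strand), chr2:25760296-25760595 (minus strand), chr1:22624565-22624864 (minus strand), chr19:68784145-68784444 (minus strand) and chr1:205269717-205270016 (plus strand). The Ccn2 window held GGAATG 3 times, and the Acta1 window held a CArG box and GGAATG. The TEAD motif occurred in 15.7% of the promoters of genes called higher, in 11.3% of those called lower and in 12.1% of all. The nuclear receptor motif occurred in 2.81%, 5.22% and 3.37% in the same order, TGANTCA in 7.02%, 5.22% and 6.23%, the CArG box in 1.97%, 0.87% and 1.27%, and TATAAA in 12.4%, 9.57% and 11.8%. None of the shares was tested, and a match is only a string of letters in the window.

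The collagens, which carry the tensile load of the wall, rose in 7 of 13, none fell, and the median was 0.42. The largest was Col12a1, a fibril-associated collagen, at 7.68, 7.30, 7.45, 7.58 and 8.74 in L-MI, against 6.07 to 6.39 with a median of 6.22 in M-MI. Col8a1, a short-chain collagen of vessels, rose by 1.13 and Col14a1 by 0.94. Of the main fibrillar collagens, Col1a1 differed by 1.13 ± 0.18, Col1a2 by 0.68 ± 0.12 and Col3a1 by 0.60 ± 0.09. L-MI replicate 5 held the highest value of all 3, with Col1a1 at 10.90 against 9.16 to 9.66 in the other L-MI arrays, and the difference of Col1a1 was 0.84 (adjusted p = 1.21e-05) without it. Of 22 genes that process or cross-link collagen, 10 rose and none fell. Lysyl oxidase-like Loxl1 differed by 1.26 and Loxl3 by 0.65, the lysyl hydroxylase Plod2 by 1.13, and the C-proteinase enhancer Pcolce by 0.63. In all 4 the arrays of the groups did not overlap.

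Proteoglycans and elastic fibre proteins rose broadly. Of 25 measured 16 rose and none fell (median 0.54). Biglycan (Bgn), a small leucine-rich proteoglycan of collagen fibrils, had 12.24, 11.77, 12.03, 12.03 and 12.38 in L-MI, against 10.91 to 11.36 with a median of 10.95 in M-MI, a difference of 1.06 ± 0.09, adjusted p = 3.46e-07. Ltbp2 and Mfap5, partners of the fibrillin microfibril, rose by 1.32 and 1.19, fibrillin 1 (Fbn1) by 0.98 and versican (Vcan) by 1.10. Decorin (Dcn), by contrast, was at 13.23 to 13.31 in L-MI and 13.11 to 13.20 in M-MI, a difference of 0.13 ± 0.03 that lay under the fold threshold although the groups did not overlap. Elastin (Eln) was at 0.28, also under the threshold (adjusted p = 0.0369). Only the laminin chain Lamc1 (0.45 ± 0.06, adjusted p = 1.92e-05) passed among the 6 basement membrane genes.

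Genes typical of cartilage and tendon, known from mature scar, rose in 8 of 13 with a median of 0.75. Of the 13, 2 were named only through the study's tables of altered transcripts, and 6 of the 8 carry a platform name. The number that rose was 6 without L-MI replicate 1 and 6 without L-MI replicate 5. Fibromodulin (Fmod) differed by 1.14, the oligomeric matrix protein Comp by 0.91, Ecrg4 by 1.36, and the joint lubricant Prg4 by 0.69. Chondroadherin (Chad, 0.75 ± 0.21, adjusted p = 0.033) and Prg4 (adjusted p = 0.0192) overlapped between the groups. The call of Chad was lost without any 1 of L-MI replicates 1 and 5 and M-MI replicates 1, 2, 3, 5 and 6 (adjusted p 0.0503 to 0.128), and that of Prg4 without any 1 of L-MI replicates 1 and 5 and M-MI replicate 1 (adjusted p 0.0542 to 0.0805). L-MI replicate 5 had the highest mean over the list, 1.19 above the M-MI mean, and L-MI replicate 3 the lowest, 0.53.

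Among matrix proteases and their inhibitors 5 of 25 rose. Tissue inhibitor Timp1 had 10.34, 9.98, 10.25, 10.52 and 10.53 in L-MI, against 8.99 to 9.62 with a median of 9.13 in M-MI (1.11 ± 0.14, adjusted p = 2.27e-05), and Timp2 rose by 0.56. Timp3 and Timp4 were at 0.15 and -0.36 and neither was called, although Timp4 was called lower without L-MI replicate 2 (adjusted p = 0.0198). Of the metalloproteinases, the gelatinase Mmp2 and Mmp23 rose by 0.49 and 0.45, whereas Mmp14 (0.25, adjusted p = 0.2) and Mmp16 (0.39, adjusted p = 0.0647) did not pass, although Mmp16 passed without any 1 of L-MI replicates 2 and 3 (adjusted p 0.0344 to 0.0407). The collagenase Mmp13 and the gelatinase Mmp9 had means raised by 1 array. Mmp13 was at 3.76, 4.38, 3.72, 4.30 and 7.03 in L-MI, against 3.71 to 4.03 with a median of 3.73 in M-MI, and 9.38% of transcript clusters were dimmer on average. Without L-MI replicate 5 its difference was 0.25 in place of 0.85.

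The signals that act on fibroblasts moved less than the matrix. Of 29 genes of TGF-beta, activin and BMP signalling 7 rose and none fell, with a median of 0.12. Tgfb2 rose by 0.82 ± 0.18, while Tgfb1 (0.39) and Tgfb3 (0.40) lay close to the fold threshold of 0.38. Their calls were lost without any 1 of L-MI replicates 1 and 5 and M-MI replicates 1 and 3 (difference 0.34 to 0.37) for Tgfb1 and without any 1 of L-MI replicates 1 and 5 and M-MI replicate 4 (difference 0.32 to 0.38) for Tgfb3, and the list's number was 11 without L-MI replicate 2. The secreted follistatin-like Fstl1 and the activin inhibitor Fstl3 rose by 0.85 and 0.72, and the activin A subunit Inhba by 0.58. In Wnt signalling all 5 of 26 that rose were secreted antagonists: Sfrp1, Sfrp2, Sfrp4, Dkk3 and Frzb. Frzb overlapped, at 7.04 to 8.62 in L-MI and 6.82 to 7.33 in M-MI, and was not called on the 11 arrays alone (adjusted p = 0.0905). Sfrp1 was at 8.73, 8.13, 8.23, 9.05 and 9.39 in L-MI, against 6.55 to 7.43 with a median of 6.92 in M-MI (1.79 ± 0.19, adjusted p = 2.93e-06), and Sfrp2 rose by 1.74. No Wnt ligand or receptor on the list was called, and the list's median was 0.04.

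Of 15 genes of activated fibroblasts and smooth muscle 6 rose, among them Thy1 (0.83), the actin-binding Tagln (0.55) and the fibroblast activation protein Fap (0.51). Without L-MI replicate 5 the number was 3. Of 32 growth factors and receptors only Igfbp6 (0.83), Vegfd (0.88) and Fgfr1 (0.46) passed. Among 9 fibroblast markers 4 rose, all 4 of them matrix genes (Col1a1, Col1a2, Col3a1 and Lum). All 9 differences were positive, with a median of 0.20. Mean levels of the markers were 0.26 to 0.70 in L-MI and -0.11 to 0.10 in M-MI, relative to the M-MI mean.

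**Figure D2:**
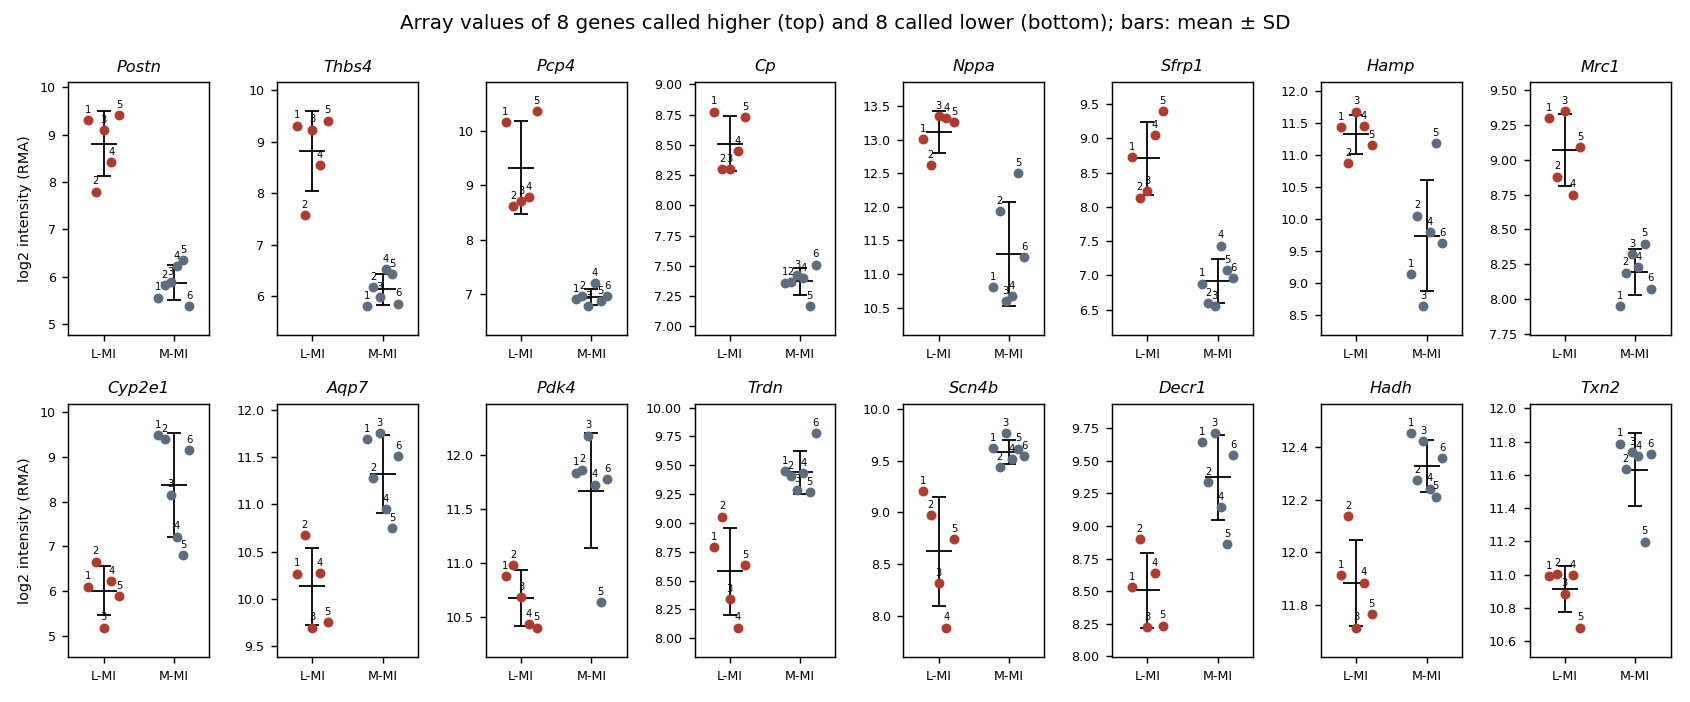
Points are the log2 intensities of single arrays, numbered by replicate, in L-MI (n = 5) and M-MI (n = 6), with mean ± SD as bars; each panel has its own scale. Postn, Thbs4 and Pcp4 leave a wide gap between the groups, while M-MI replicate 5 reaches the L-MI range in Hamp, Pdk4 and Decr1.

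Hormone genes of wall stress separated unevenly. Nppa, the atrial natriuretic peptide that the loaded ventricle re-expresses, had 13.02, 12.62, 13.35, 13.33 and 13.26 in L-MI, against 10.60 to 12.50 with a median of 11.03 in M-MI, 3.53-fold higher (1.82 ± 0.29, adjusted p = 0.00023). M-MI was broad here, with replicate 5 at 12.50, close below the lowest L-MI array, and replicate 2 next at 11.94. Its partner Nppb was at 12.90 to 13.15 in L-MI and 11.92 to 12.83 in M-MI, and the groups did not overlap although the difference of 0.61 ± 0.27 did not pass (adjusted p = 0.214). Fitted on the 11 arrays alone Nppb passed (adjusted p = 0.0217), whereas 13 genes named here lost their call in that fit (adjusted p 0.0505 to 0.179): Frzb, Myot, Cxcl13, Acta1, Fhl1, Chad, Prg4, Clec3a, Ibsp, Rrm2, Ephx2, Gpihbp1 and Rsad2. The peptide protease Corin (0.20), endothelin 1 (Edn1, 0.31) and the pacemaker channel Hcn4 (0.71) did not pass either. Pcp4, a small regulator of calmodulin, had 10.16, 8.61, 8.70, 8.79 and 10.35 in L-MI, against 6.78 to 7.21 with a median of 6.94 in M-MI (2.37 ± 0.24, adjusted p = 1.40e-06). Its L-MI values split into a pair above 10 (replicates 1 and 5) and 3 between 8.61 and 8.79.

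Altogether 4 of 21 genes of wall stress and the fetal programme rose: Pcp4, Nppa, the stretch sensor Fhl1 (0.38) and the skeletal actin Acta1 (0.59 ± 0.16, adjusted p = 0.029). Fhl1 lost its call without any 1 of L-MI replicates 3 and 4 and M-MI replicate 1 (difference 0.29 to 0.38, adjusted p 0.0397 to 0.0598) and Acta1 without any 1 of L-MI replicates 3, 4 and 5 and M-MI replicates 1 and 6 (adjusted p 0.0611 to 0.101), so that 2 of 21 rose without L-MI replicate 3 or 4 or M-MI replicate 1. Neither cardiac myosin was called. Myh6, the fast adult isoform, differed by -0.31 ± 0.06 (adjusted p = 0.00334), short of the fold threshold, and the slow Myh7 by 0.08 ± 0.06 (adjusted p = 0.6). A transcript cluster that the study named Mir3546 fell by 0.86 on the log2 scale (adjusted p = 0.0275), with arrays at 6.47, 5.93, 6.43, 5.26 and 6.09 in L-MI, against 6.23 to 7.44 with a median of 6.90 in M-MI. In RefSeq (GRCr8) the hairpin lies within the span of Myh6 and overlaps the hairpin of Mir208a, on the opposite strand to both. Which strand the probes of this transcript cluster read was not checked here. RefSeq also gives its mature form, shown with the seed, bases 2 to 8, in capitals, at chr15:32395601-32395622 (plus strand).
rno-miR-3546: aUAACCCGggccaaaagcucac
The call was lost without any 1 of L-MI replicates 4 and 5 and M-MI replicates 3 and 6 (adjusted p 0.0524 to 0.0902).

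Of 26 neurohormonal genes 3 rose, among them the natriuretic peptide clearance receptor Npr3 (0.77) and the glucocorticoid-activating Hsd11b1 (0.48). Npr3 lost its call without any 1 of L-MI replicates 1 and 5 and M-MI replicate 4 (adjusted p 0.0502 to 0.0736), and the number was 5 without L-MI replicate 2 or M-MI replicate 5. Markers of atrial muscle were read beside Nppa, which atrial muscle makes in quantity. Of 7 such markers only Nppa was called, and 6 differences, its own among them, were positive (median 0.39). Mean levels of the markers were 0.28 to 1.66 in L-MI and -0.13 to 0.38 in M-MI, relative to the M-MI mean. M-MI replicate 5 held the 0.38 and was also the highest M-MI array in Nppa. The part of atrial muscle in the Nppa difference was not tested. L-MI replicate 1 stood alone in the atrial light chain Myl7, at 11.91, 8.64, 8.0, 8.58 and 8.03 in L-MI, against 6.98 to 9.37 with a median of 7.74 in M-MI, and in sarcolipin (Sln), which regulates the calcium pump of atria, at 9.67, 5.97, 5.54, 6.13 and 5.68 in L-MI, against 5.65 to 6.06 with a median of 5.94 in M-MI. Its Nppa, 13.02, was second lowest of the L-MI arrays, and without it Nppa differed by 1.84 (adjusted p = 0.000816).

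Genes of fatty acid use fell. Of 37 genes of fatty acid uptake and oxidation 18 fell and none rose, with a median of -0.38 and only 1 positive difference. With 1 array left out, between 12 and 23 fell and none rose. The steps of mitochondrial oxidation fell together: the dehydrogenases Acadm (-0.46), Acadvl (-0.42) and Hadh (-0.45), and, further, the auxiliary reductase Decr1 (-0.87). Hadh was at 11.91, 12.14, 11.71, 11.88 and 11.76 in L-MI, against 12.21 to 12.45 with a median of 12.32 in M-MI (-0.45 ± 0.06, adjusted p = 5.88e-05). Pdk4, the kinase that spares glucose by inhibiting pyruvate dehydrogenase, had 10.88, 10.98, 10.68, 10.43 and 10.40 in L-MI, against 10.64 to 12.18 with a median of 11.81 in M-MI (-1.0 ± 0.20, adjusted p = 0.00239). M-MI replicate 5, at 10.64, stood inside the L-MI range and apart from the other M-MI arrays. The uncoupling protein Ucp3 fell by 0.87 on the log2 scale, the acyltransferase Gpam by 0.56 and the capillary lipase anchor Gpihbp1 by 0.65. The last lost its call without L-MI replicate 4 (adjusted p = 0.0576).

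The pathways that meet fatty acid oxidation downstream shifted less. All 37 genes of the respiratory chain and citrate cycle had a negative difference, reaching -0.30 with a median of -0.13, and none was called. Suclg1 of the citrate cycle was lowest at -0.30 ± 0.07, adjusted p = 0.00885. Of 18 genes of branched-chain amino acid breakdown the dehydrogenase subunit Bckdha fell (-0.48 ± 0.07, adjusted p = 4.81e-05), and the median was -0.25. The number was 2 without L-MI replicate 2 and 3 without M-MI replicate 5. Of 15 regulators Mlxipl, a glucose-responsive factor, fell (-0.53). Ppara (-0.12), Pparg (-0.35), Ppargc1a (-0.27) and Esrra (-0.26), the factors known to drive the oxidation genes, were all negative and not called. Pparg passed without any 1 of L-MI replicate 2 and M-MI replicate 5 (adjusted p 0.00695 to 0.00825), and the list's number was 3 without L-MI replicate 2 or M-MI replicate 5 and 2 without M-MI replicate 2. In glucose use 4 of 27 rose and 2 fell. The kinases of pyruvate dehydrogenase split, with Pdk3 at 0.70 and Pdk1 at -0.40, and the glycolytic enzymes Eno2 (0.58) and Pfkp (0.55) rose. Pdk1 lost its call without any 1 of L-MI replicate 1 and M-MI replicate 2 (difference -0.38 to -0.35).

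Aqp7, a glycerol channel, had 10.26, 10.67, 9.69, 10.27 and 9.75 in L-MI, against 10.74 to 11.75 with a median of 11.40 in M-MI (-1.19 ± 0.17, adjusted p = 6.72e-05). The largest fall was that of Cyp2e1, a cytochrome P450 that oxidizes small molecules and fatty acids. It was at 6.10, 6.66, 5.18, 6.23 and 5.89 in L-MI, against 6.81 to 9.49 with a median of 8.66 in M-MI, 5.14-fold lower (-2.36 ± 0.41, adjusted p = 0.000618). M-MI spanned more than L-MI in Cyp2e1, with replicates 4 and 5 at 7.22 and 6.81, just above the highest L-MI array. The soluble epoxide hydrolase Ephx2 (-0.90 ± 0.24, adjusted p = 0.0231) overlapped and lost its call without any 1 of L-MI replicates 2 and 5 and M-MI replicates 1 and 4 (adjusted p 0.0541 to 0.0912). Ddit4l, an inhibitor of mTOR signalling, and the glutamate receptor subunit Grid1 fell by 0.83 and 0.85 on the log2 scale without overlap. A second transcript cluster of Grid1 differed by -0.32 and was not called. F1m737, a name from the study's tables, was at 7.62, 7.77, 6.67, 5.71 and 6.87 in L-MI, against 8.04 to 9.22 with a median of 8.54 in M-MI (-1.63 ± 0.29, adjusted p = 0.000704).

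Few ion channels were called. Of 25 genes on that list 4 fell and 1 rose. The sodium channel subunit Scn4b was at 9.20, 8.97, 8.32, 7.89 and 8.74 in L-MI, against 9.44 to 9.77 with a median of 9.58 in M-MI (-0.96 ± 0.17, adjusted p = 0.000795), and every L-MI array lay below every M-MI array. The potassium channels Kcnj3 (-0.45) and Kcnk3 (-0.48) were also among those that fell. Among 22 calcium handling genes the T-type channel Cacna1g rose (1.18 ± 0.13, adjusted p = 3.48e-06) and triadin (Trdn), which anchors the release complex of the sarcoplasmic reticulum, fell (-0.86 ± 0.12, adjusted p = 6.72e-05). Trdn was at 8.79, 9.06, 8.34, 8.09 and 8.63 in L-MI, against 9.27 to 9.78 with a median of 9.42 in M-MI. The calcium pump Atp2a2 (-0.03), its inhibitor phospholamban (Pln, -0.08) and the ryanodine receptor Ryr2 (-0.16) did not pass. In the sarcomere the Z-disc protein Myot rose (0.84) beside Acta1, and the tropomodulin Tmod4 fell (-0.80). On the 11 arrays alone Myot (adjusted p = 0.0505) and Acta1 (adjusted p = 0.121) were not called.

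**Figure D3:**
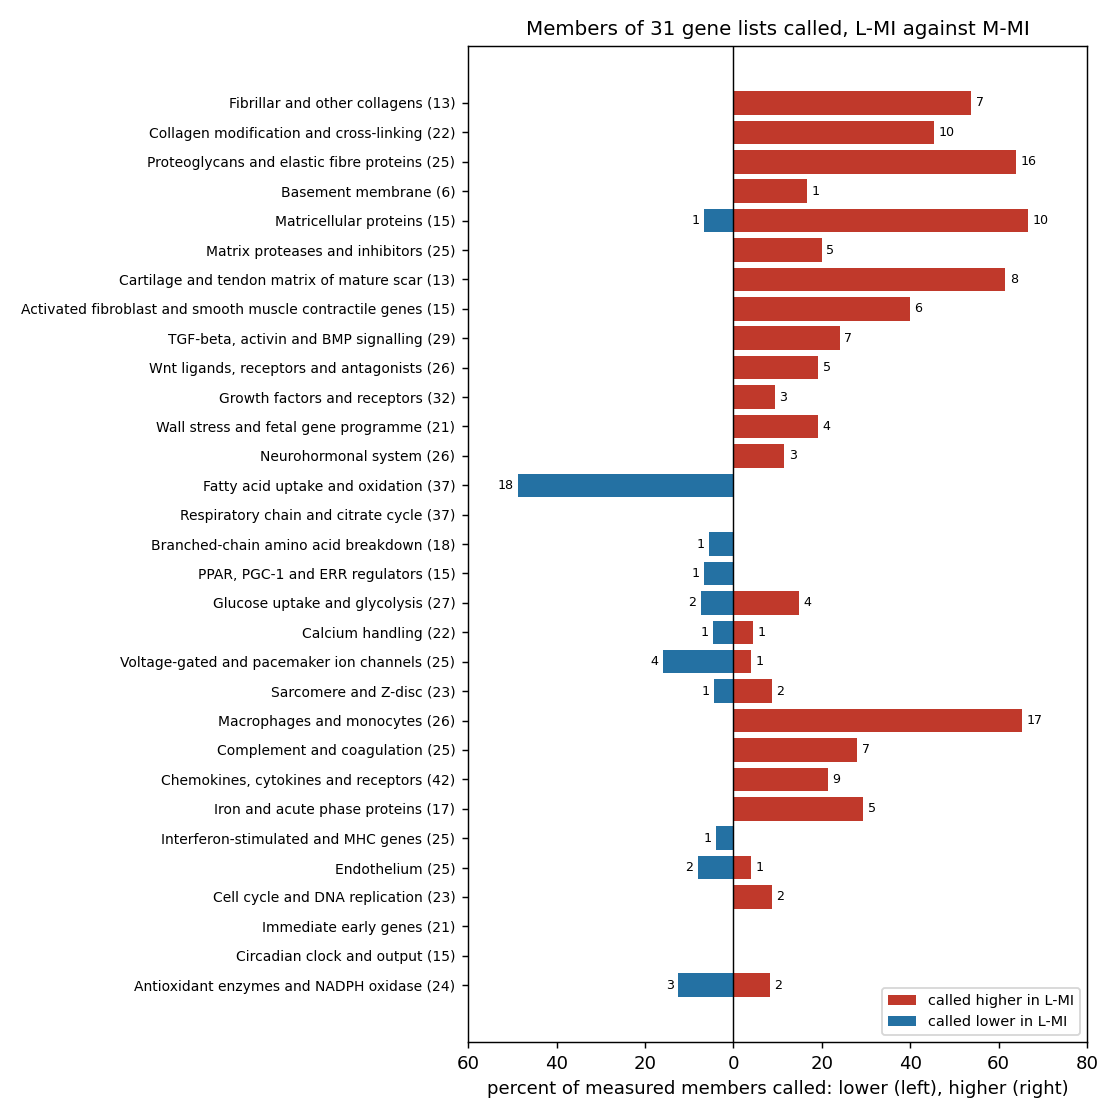
Bars give the percent of measured members (number in brackets) of 31 gene lists that were called in L-MI against M-MI, lower to the left and higher to the right, with counts at the bar ends. Calls in matrix lists and in macrophage genes all lie on the right apart from Vtn, and the 18 of fatty acid uptake and oxidation all lie on the left.

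Macrophage genes rose broadly. Of 26 measured 17 rose and none fell (median 0.66), and all 9 markers of the cell type rose, with a median of 0.74 and a range of 0.65 to 0.88. The mannose receptor Mrc1, a marker of resident macrophages, had 9.30, 8.88, 9.35, 8.75 and 9.09 in L-MI, against 7.95 to 8.40 with a median of 8.21 in M-MI (0.88 ± 0.09, adjusted p = 3.56e-06). The receptor Csf1r rose by 0.65, Cd68 by 0.76, the lectin Lgals3 by 0.74 and the scavenger receptor Cd163 by 0.78. Ccr2, the receptor of recruited monocytes, was at -0.32 (adjusted p = 0.138). Markers of neutrophils, B cells, natural killer cells and mast cells had no call, and of 8 T cell markers only Cd4 rose, a gene that rat macrophages also express. Of 4 erythrocyte markers the anion exchanger Slc4a1 fell (-0.50 ± 0.14, adjusted p = 0.0277), a call lost without any 1 of L-MI replicate 1 and M-MI replicates 2 and 3 (adjusted p 0.0637 to 0.098), and all 4 differences were negative, with mean levels of -0.55 to -0.16 in L-MI and -0.12 to 0.14 in M-MI, relative to the M-MI mean. Of 5 Schwann cell and nerve markers Cnp, an enzyme of myelinating cells, rose (0.67 ± 0.09, adjusted p = 4.34e-05), and all 5 differences were positive, with mean levels of 0.17 to 0.30 in L-MI and -0.18 to 0.13 in M-MI. The groups did not overlap in either list, and the part of these cells in other results was not tested. The 8 endothelial markers had no call. In the wider list of 25 endothelial genes 1 rose and 2 fell.

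Of 25 complement and coagulation genes 7 rose, among them von Willebrand factor (Vwf, 0.50), the factor XIII chain F13a1 (0.91) and the complement brake Cd55 (0.79). Of 42 chemokines, cytokines and receptors 9 rose. Tnfrsf11b, or osteoprotegerin, a decoy receptor for RANKL, had 8.07, 7.40, 7.71, 7.96 and 7.87 in L-MI, against 6.42 to 6.83 with a median of 6.63 in M-MI (1.18 ± 0.12, adjusted p = 1.85e-06), and the chemokine scavenger Ackr2 rose by 0.81. The B cell chemokine Cxcl13 differed by 1.25 ± 0.30, but M-MI replicate 6, at 8.78, stood within the L-MI range of 8.27 to 9.24 and M-MI replicate 3, at 8.22, just below it. Its call was lost on the 11 arrays alone (adjusted p = 0.0548). In the iron and acute phase list 5 of 17 rose. Ceruloplasmin (Cp), a copper ferroxidase, had 8.78, 8.30, 8.30, 8.45 and 8.73 in L-MI, against 7.17 to 7.51 with a median of 7.38 in M-MI (1.14 ± 0.10, adjusted p = 3.51e-07), and the chitinase-like Chi3l1 rose by 1.47, Lbp by 0.89 and transferrin (Tf) by 0.56. Hepcidin (Hamp), the iron hormone, had 11.44, 10.88, 11.68, 11.46 and 11.16 in L-MI, against 8.65 to 11.19 with a median of 9.71 in M-MI (1.58 ± 0.34, adjusted p = 0.00407), with M-MI replicate 5 at 11.19 above 2 of the 5 L-MI arrays.

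Of 25 interferon-stimulated and MHC genes Rsad2 alone was called, lower in L-MI (-0.64 ± 0.17, adjusted p = 0.022). The call was lost without L-MI replicate 3 (adjusted p = 0.0718). M-MI replicate 3 held it at 8.39, and that array was high in the list as a whole, at 0.67 above the M-MI mean against -0.31 to 0.25 in the others. Mx1 reached 9.46 there, against 6.39 to 7.65 in the other M-MI arrays and 6.72 to 7.36 in L-MI. Among 23 cell cycle genes Ccnd1 (0.44) and Rrm2 (0.62) rose, and all 23 differences were positive with a median of 0.21. The list's level was 0.41, 0.24, 0.05, -0.04 and 0.43 in L-MI, relative to the M-MI mean. M-MI arrays lay between -0.09 and 0.13, so L-MI replicates 3 and 4 were inside the M-MI range. Rrm2 lost its call without any 1 of L-MI replicates 1, 2 and 5 and M-MI replicates 1 and 6 (adjusted p 0.0501 to 0.0927), and another transcript cluster of it was called at 0.55. No immediate early gene (21 measured) and no clock gene (15) was called. Of 24 antioxidant and NADPH oxidase genes the oxidase subunit Cybb, also a macrophage gene, was 1 of 2 that rose (0.67), and the mitochondrial thioredoxin Txn2 (-0.72 ± 0.09, adjusted p = 3.30e-05) 1 of 3 that fell.

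The arrays of a group were not alike. On a scale where the M-MI mean is 0% and the L-MI mean 100% of each called difference, the median over the 784 was 61.7% for L-MI replicate 2 and between 99.7% and 120% for the other L-MI arrays. M-MI replicate 5 was at 26.0%, and the other M-MI arrays lay between -18.2% and 6.24%. The arrays outside the contrast lay at -5.65% to 3.55% (sham) and 1.985% to 24.3% (S-MI). These positions describe genes chosen by the same contrast and were not tested. L-MI replicate 2 was also the lowest L-MI array in the matricellular list, at 0.65 above the M-MI mean against 0.94 to 1.57. In the fatty acid list it met M-MI replicate 5, both at -0.23.

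**Figure D4:**
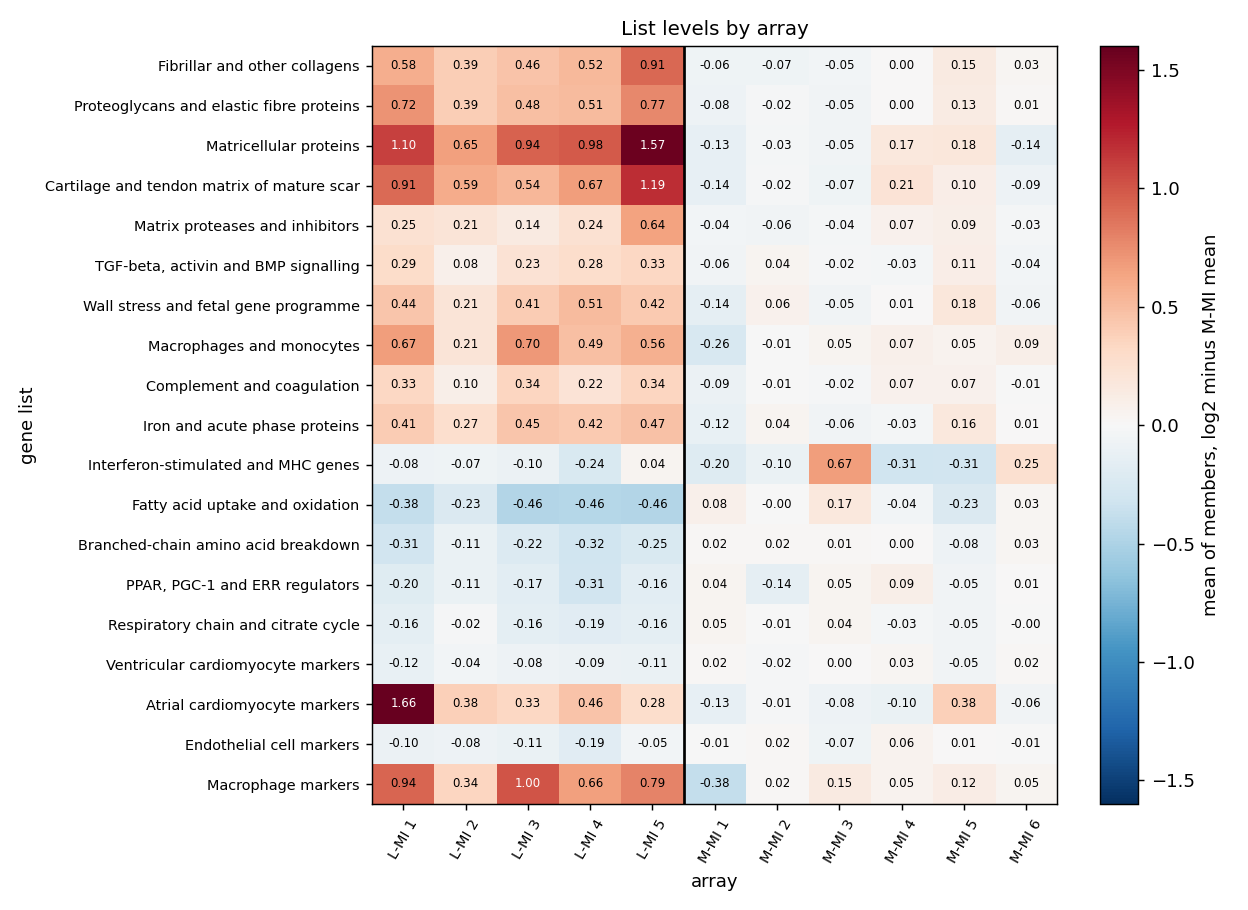
Each cell is the mean over the measured members of a list (rows) in 1 array (columns), as log2 minus the M-MI mean, with L-MI left of the line and M-MI right of it. L-MI replicate 5 is highest of all arrays in the top 5 rows, which are matrix lists, L-MI replicate 2 is lowest of L-MI in the top 3, and M-MI replicate 3 alone is high in interferon genes (0.67).

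L-MI replicate 5 held the highest value in several genes that were picked for this after their values were seen, so they stand for no theme. Bone sialoprotein (Ibsp) was at 5.06, 6.38, 4.85, 5.85 and 8.56 in L-MI, against 4.73 to 4.93 with a median of 4.85 in M-MI. Osteopontin (Spp1), made by bone cells and macrophages, was at 7.83, 8.34, 7.46, 7.85 and 10.31 in L-MI, against 6.38 to 6.85 with a median of 6.59 in M-MI, and the groups did not overlap. The osteoclast protease Ctsk had 8.72, 8.32, 8.43, 8.28 and 10.11 in L-MI, against 7.50 to 7.96 with a median of 7.60 in M-MI. L-MI replicates 2 and 4 came next in Ibsp and Mmp13, above all M-MI arrays, and replicate 2 was highest in the cartilage lectin Clec3a (7.54), which differed by 0.93. The call of Clec3a was lost without any 1 of L-MI replicates 2 and 5 (adjusted p 0.0579 to 0.088), and that of Ibsp without any 1 of L-MI replicates 2 and 4 and M-MI replicates 1, 2, 3, 4, 5 and 6 (adjusted p 0.0507 to 0.0742). Without replicate 5 the differences were 1.27 for Spp1 (adjusted p = 9.29e-05) in place of 1.76, 0.80 for Ctsk (adjusted p = 1.39e-05) in place of 1.13, and 0.70 for Ibsp (adjusted p = 0.0309) in place of 1.3. Aggrecan (Acan, 0.56) and Mmp9 (0.72) were not called, with it or without it, although Acan was called without L-MI replicate 3 (adjusted p = 0.00438).

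**Figure D5:**
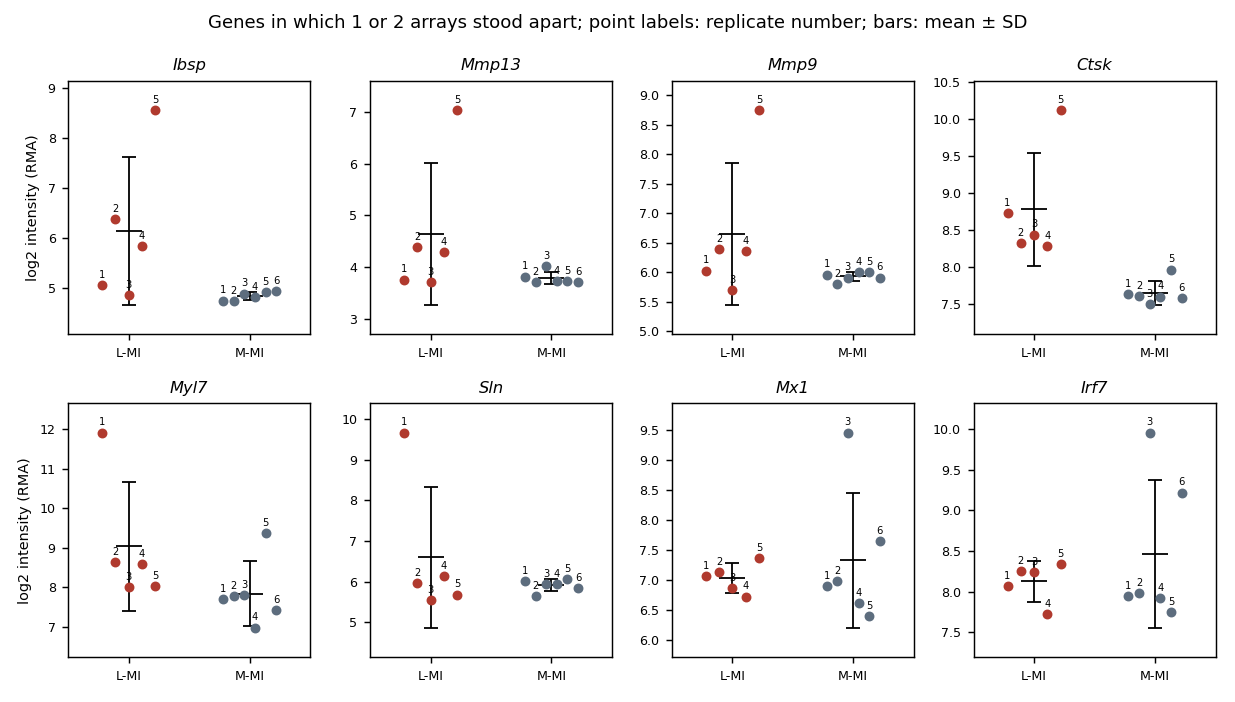
Log2 intensities of single arrays in L-MI (n = 5) and M-MI (n = 6) for genes in which a few arrays stood apart, with replicate numbers and mean ± SD. L-MI replicate 5 leads Ibsp, Mmp13, Mmp9 and Ctsk, L-MI replicate 1 leads Myl7 and Sln, and M-MI replicate 3 leads Mx1 and Irf7.

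Genes called against M-MI need not be called against sham. There were 95 such genes, 82 higher and 13 lower, among the 505 higher and 156 lower named genes. The 5 with the smallest p were the aquaporin Aqp6 (-0.54), the actin nucleator Spire1 (0.47), the thioredoxin-domain protein Txndc12 (0.40), the palmitoyltransferase Zdhhc13 (0.41) and Prtfdc1 (0.47). Their L-MI minus sham differences were -0.29, 0.35, 0.33, 0.29 and 0.35, which the choice of these genes limits. M-MI against sham gave an adjusted p of 0.689 or more for each. Txndc12 fell under the fold threshold without M-MI replicate 3 (difference 0.38, adjusted p = 0.000114).

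The study checked its arrays by RT-qPCR on LV genes, of which 36 were matched here. Some were taken up because of these arrays, so the set is not independent evidence of direction. On the arrays 22 of them rose in L-MI against M-MI, Vtn fell and 13 were not called, and the median of the 36 was 0.64. The study's RT-qPCR was against sham, a different contrast. Of the 13, it found Nppb, Corin, Hcn4, Edn1, Eln, Timp3, Mmp13, Mmp14 and Mmp16 significantly higher in L-MI, and Pparg lower. Timp4, Mmp9 and Tspan12 did not differ significantly there, nor did Tgfb1, which was called here. In M-MI none of the 13 differed significantly by RT-qPCR. The tetraspanin Tspan12 differed by -0.37 ± 0.09 (adjusted p = 0.00773), short of the fold threshold, and was called lower without M-MI replicate 2 (adjusted p = 0.00184). Of the remaining large rises, suprabasin (Sbsn), an epithelial secreted protein, had 9.29, 9.44, 9.26, 10.22 and 9.88 in L-MI, against 7.29 to 8.56 with a median of 7.46 in M-MI (1.93 ± 0.23, adjusted p = 1.33e-05), and Tceal7, a small nuclear protein, rose by 1.64.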

How the data were processed

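RNA of 23 left ventricles was hybridised by the authors to Affymetrix Rat Gene 1.0 ST arrays, 1 rat each, after removal of the visible scar. The deposited log2 intensities had been normalized by the authors with RMA and Partek (versions not given in the sources used here). The log base is not stated and follows from RMA. No per-sample column was left out (0), and the blood cell arrays of the series were not used here.

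A model with 1 mean for each LV group was fitted to all 23 arrays with limma 3.58.1 in R 4.3.3, and p-values were adjusted over all 29214 transcript clusters (Benjamini-Hochberg). A call needed a fold of at least 1.3 and an adjusted p of at most 0.05, the criteria of the study's methods. The fit was tested on simulated data. Platform annotation gave 15310 transcript clusters 1 symbol and the study's tables named 153 more, 14653 genes in all. Those tables hold only transcripts that the study found altered in L-MI against sham, and 92 of the 153 were called here. On platform names alone the risen numbered 9 matricellular, 6 collagen, 6 cartilage, 5 complement and 8 chemokine list genes. They numbered 3 in glucose use, 2 neurohormonal, 0 channels and 0 endothelial genes, and the fallen 3 channels and 1 in glucose use. For a gene with several transcript clusters the brightest was used. RT-qPCR genes and those with the largest changes, the largest spread in L-MI or the smallest p in each of 31 gene and 17 marker lists were named. Others, such as channel subunits, genes of single arrays and the 4 closing families, were chosen after their values were seen. The values of some members are not reported here. The comparison, members and lists were all chosen with earlier results of these data known. List members given numbered 857 and those measured 770. Promoter and miRNA sequences came from RefSeq. Figures were drawn with matplotlib 3.10.9 under Python 3.11.15.

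Alternatives were the 11 arrays alone, ordinary analysis of variance, limma-trend, array weights, no dim transcript clusters (lowest 30%), centring, repeated quantile normalization, other thresholds, a replicate block, and single arrays left out. The p-values measure the spread between these rats. No scan or extraction batch is given in the sources used here.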

Additional observations from a re-analysis of the deposited data

Results flagged for a closer look

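A value is listed here when the highest or lowest array of a group lay further from its neighbour than Dixon's 95% limit allows. That was so for 43 of 422 sets of values, and chance does this in about 1 in 20 groups. The sets are those of the named genes and the lists. Some genes were named for a large spread in L-MI or after single arrays were seen to stand apart. The number flagged can therefore not be read against the chance share. Genes also share arrays, so the sets are not independent. Levels of lists are means over their members minus the M-MI mean, and no cause was tested.

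In L-MI, replicate 5 stood above the others in several genes. It had 8.74 in Col12a1 (next array 7.68), 10.90 in Col1a1 (9.66), 10.16 in Col1a2 (9.43), 8.75 in Mmp9 (6.40), 7.03 in Mmp13 (4.38) and 10.11 in Ctsk (8.72), and its level of matrix proteases and inhibitors was 0.64 (0.25). Replicate 1 stood above the others in atrial genes, with 11.91 in Myl7 (next array 8.64), 9.67 in Sln (6.13) and a level of atrial markers of 1.66 (0.46). Its level of the calcium handling list was 0.21 (0.02). Replicate 2 lay towards M-MI. It was highest in Acadvl at 11.37 (11.14) and Bckdha at 8.94 (8.75), and its level of the respiratory chain and citrate cycle was -0.02 (-0.16). It was lowest in Pfkp at 8.27 (8.61), Cd14 at 7.91 (8.51), Cnp at 8.48 (8.81), Txndc12 at 9.46 (9.59) and Lamc1 at 10.61 (10.83), and its level of chemokines, cytokines and receptors was 0.11 (0.24). Replicate 4 was lowest in Atp2a2 at 13.17 (13.27) and in mast cell markers at -0.19 (-0.09).

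In M-MI, replicate 5 lay towards L-MI in several of these genes. It was lowest in Pdk4 at 10.64 (next array 11.73), in Txn2 at 11.20 (11.63) and in branched-chain amino acid breakdown at -0.08 (0.00). It was highest in Myl7 at 9.37 (7.80), Col8a1 at 7.0 (6.62), Ctsk at 7.96 (7.63), Anxa1 at 8.55 (8.31) and the atrial markers at 0.38 (-0.01). Replicate 1 was lowest in Fhl1 at 10.56 (10.91), in macrophage and monocyte genes at -0.26 (-0.01) and in macrophage markers at -0.38 (0.02). Replicate 2 was highest in Tgfb3 at 9.02 (8.76) and lowest in Ppargc1a at 10.23 (10.66), Apln at 7.83 (8.34) and glucose uptake and glycolysis at -0.06 (0.00). Replicate 4 was highest in the cartilage genes Chad at 6.99 (6.31) and Prg4 at 8.03 (7.05), replicate 3 in Mmp13 at 4.03 (3.82) and Clec3a at 5.66 (5.43), and replicate 6 in Trdn at 9.78 (9.45) and Ccr2 at 9.07 (8.64).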

How the results depend on the processing

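The direction of L-MI against M-MI stayed lopsided towards rises under every alternative run, and the number of calls moved mainly with the fold threshold and with single arrays. A fold of 1.5 left 260 calls (211 higher, 49 lower), and no fold threshold gave 2196 (1310 higher, 886 lower). Leaving out 1 array at a time gave 644 to 992 calls, 470 to 690 higher and 166 to 302 lower, with the most without L-MI replicate 2. Without L-MI replicate 1 there were 654 (478 higher, 176 lower). The risen then fell to 8 in collagen processing, 6 in cartilage, 5 in TGF-beta, 16 in macrophage and 6 in chemokine genes. They fell to 3 in glucose use and 1 in cell cycle genes. In growth factors they increased to 4, and in iron and acute phase genes to 6. The fallen decreased to 1 in glucose use and 2 in antioxidant genes. Without L-MI replicates 1 and 5 together, added after seeing the data, 465 were called (329 higher, 136 lower). Non-overlap, which cannot drop when arrays are left out, ranged without 1 array from 876 to 1382 above and from 676 to 1079 below. There were 966 below without L-MI replicate 4 and 968 without L-MI replicates 1 and 5. Centring each array on its median gave 70.5% higher among the calls in place of 74.1%. M-MI against sham and against S-MI stayed at 0 under each alternative that holds those groups, none of which left out a sham or S-MI array. Calls of single named genes were not followed through the other thresholds. Of 134 named genes called, 105 kept their call under all remaining alternatives. Under some of these 29 lost it (13 on the 11 arrays alone, adjusted p 0.0505 to 0.179), and 18 lost it when 1 array was left out. Of 29 not called, 6 were called under some. Sln reversed without L-MI replicate 1 (-0.0772, the lowest without 1 array, with 0.954 the highest) and without replicates 1 and 5 (-0.03), and Mx1 without M-MI replicate 3 (0.12, range -0.49 to 0.12). With the replicate number as a block 775 were called (592 higher, 183 lower), and Mir3546, Chad and Rsad2 lost their call. The numbers do not pair the rats: same-numbered arrays of the groups had correlated deviations of -0.07 to 0.08 in 5 pairs, and 1 of 5 L-MI arrays correlated best with its own number. Low signal limits Mmp13, Ibsp and Mmp16, which only 9.38%, 24.4% and 24.3% of transcript clusters were dimmer than.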

Other observations

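Families looked up after the calls had been seen add to the lists above, and nothing was tested on them. Of 28 genes of eicosanoid synthesis and reception 9 were called higher in L-MI and none lower, with a median of 0.08. They include both cyclooxygenases, Ptgs1 (0.62) and Ptgs2, the prostacyclin synthase Ptgis (0.73), the prostaglandin D synthase Hpgds (0.63), Alox5 (0.48) and the prostaglandin F receptor Ptgfr. A second transcript cluster of Ptgis differed by 0.29 and was not called (adjusted p = 0.0553). Ptgs2 was at 7.16, 6.54, 7.19, 6.66 and 8.02 in L-MI, against 5.84 to 6.43 with a median of 6.14 in M-MI (0.98 ± 0.17, adjusted p = 0.000656), so no M-MI array reached the lowest L-MI array. Ptgfr was at 10.17, 10.41, 10.31, 10.42 and 10.21 in L-MI, against 8.33 to 9.89 with a median of 9.27 in M-MI, a difference of 1.10 ± 0.22. Of 20 S100 proteins and annexins 5 were called higher and none lower (median 0.17). S100a4, an activation marker of fibroblasts and macrophages, was at 7.72, 7.66, 7.90, 7.62 and 7.92 in L-MI, against 6.65 to 6.97 with a median of 6.88 in M-MI (0.93 ± 0.08, adjusted p = 3.46e-07). Anxa1 differed by 0.69. The muscle ankyrin repeat protein Ankrd23, a stretch-responsive gene, was at 9.70, 9.07, 9.70, 10.14 and 9.88 in L-MI, against 7.81 to 9.0 with a median of 8.49 in M-MI, and the adhesion molecule Ncam1 differed by 1.34 ± 0.36, adjusted p = 0.0238, a call lost without any 1 of L-MI replicates 3 and 5 and M-MI replicates 2 and 6 (adjusted p 0.0546 to 0.0697).

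Of 28 genes of peroxisomes and lipid droplets 10 were called lower in L-MI and none higher, with a median of -0.17. The peroxisomal bifunctional enzyme Ehhadh was at 7.80, 8.25, 7.87, 7.52 and 7.86 in L-MI, against 8.10 to 8.88 with a median of 8.68 in M-MI (-0.74 ± 0.14, adjusted p = 0.00124), and the droplet coat protein Plin5 differed by -0.70. Of 16 genes of capillary endothelium 5 were called lower, namely Aqp7, Gpihbp1, the carbonic anhydrase Car4 (-0.79), Cd300lg (-0.74) and apelin (Apln, -0.62). Car4 was at 8.46, 8.70, 7.95, 8.43 and 8.66 in L-MI, against 9.08 to 9.52 with a median of 9.21 in M-MI (-0.79 ± 0.11, adjusted p = 5.63e-05). The 8 general endothelial markers had no call, with differences of -0.20 to -0.01.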
